A study of Mus musculus with 6 samples.

Results

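Histone genes were followed in CD4+CD62L- T cells of mouse lymph nodes that had or lacked the RNase Dicer. Members were the array rows whose single gene symbol, in its present or older form, is that of a replication-dependent histone gene or of one of a named set of variants. This gave 40 genes of the 19935 measured, 30 replication-dependent and 10 variant, on 42 rows. The 3 Dicer WT samples came from animals with both Dicer alleles floxed (Dicer lox/lox) and no CD4Cre. The 3 Dicer KO samples came from Dicer lox/lox animals carrying CD4Cre, in which Cre is driven by the Cd4 promoter. All 6 samples were untreated resting cells sorted by flow cytometry, and the labels give no age or strain. The design text calls the 3 samples of a genotype biological replicates, and the labels do not say whether animals were pooled. Total RNA was hybridised to MoGene 1.0 ST arrays, which are 1-colour Affymetrix arrays.

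Nucleosomes wrap DNA around a core of H2A, H2B, H3 and H4, and linker histone H1 binds the DNA that enters and leaves the core. Replication-dependent histone genes lie in gene clusters, are transcribed mostly in S phase, and make messages that end in a stem-loop in place of a poly(A) tail. Some of them also give polyadenylated messages, mainly in cells that have left the cell cycle. Variant histones such as H2A.Z, H3.3 and the centromere protein CENP-A are made from single genes with ordinary polyadenylated messages and are placed in chromatin by their own chaperones. Resting T cells divide little, so fewer replication-dependent messages are expected in them than in dividing cells.

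The deposited values are log values, read here as log2, and each row is centred on the median of its 6 arrays. A value is thus a difference from that row's median and not a level, so the values set no gene's level against another's. A coarse level class, described below, was the only guide to level. Where the genotypes are fully apart, the 2 arrays nearest the median are equal in size and opposite in sign. Differences are Dicer KO minus Dicer WT with the SE of the limma fit and n = 3 per genotype, values per array are given in the order 1, 2, 3 of each genotype, and a gene was called when its adjusted p over all 19935 genes was below 0.05. The targeted gene, Dicer1, read 0.12, 0.02 and -0.10 in Dicer WT and 0.21, -0.02 and -0.09 in Dicer KO, a difference of 0.02 ± 0.09 (limma adjusted p = 0.949). The sources used here do not say whether its probes lie in the deleted exons, so its row checks nothing about the deletion. A coarse level class can be read from the binary step of the stored numbers. All 7 CD4 T cell markers of a fixed list were in the higher class, as was 1 of 2 CD8 T cell markers, Cd8b1. The class held 0 of 10 B cell, 0 of 10 myeloid, 0 of 5 dendritic, 0 of 5 NK cell, 0 of 5 thymocyte and 0 of 1 erythroid markers. In bulk RNA, fewer cells of a type and less RNA per cell cannot be told apart.

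Of the 30 replication-dependent histone genes, 11 were higher in Dicer KO and 0 were lower, beside 5.94% of all genes called higher, 2.79% called lower and 8.73% called in all. At an unadjusted limma p below 0.05, 18 were higher and 0 lower, beside 2412 higher and 1873 lower of all 19935 genes. The median difference of the replication-dependent genes was 0.46, or 1.37-fold higher in Dicer KO, where the median over all genes was -0.011. The difference was above 0 for 27 of the 30 (26 after quantile normalization), as it was for 45.2% of all genes. In 18 of them every Dicer KO array read above every Dicer WT array, which held for 13.5% of all genes. Of the 10 variants, 1 was higher and 0 were lower by limma, with 2 higher and 2 lower at an unadjusted p below 0.05 and a median difference of 0.02. The difference between the classes was not tested. With 1 array left out, the number of replication-dependent genes higher in Dicer KO was 6 (Dicer WT 1 left out, 3.18% of all genes), 9 (Dicer WT 2, 3.83%) or 10 (Dicer WT 3, 5.37%). It was 12 with Dicer KO 1 left out (4.79% of all genes), 5 with Dicer KO 2 left out (2.77%) and 9 with Dicer KO 3 left out (5.01%). Their median difference was 0.29 when Dicer KO 3 was left out. The 5 genes H2bc4, H2bc8, H4c9, H1f2 and H1f3 were called with all arrays and with any 1 left out.

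**Figure D1:**
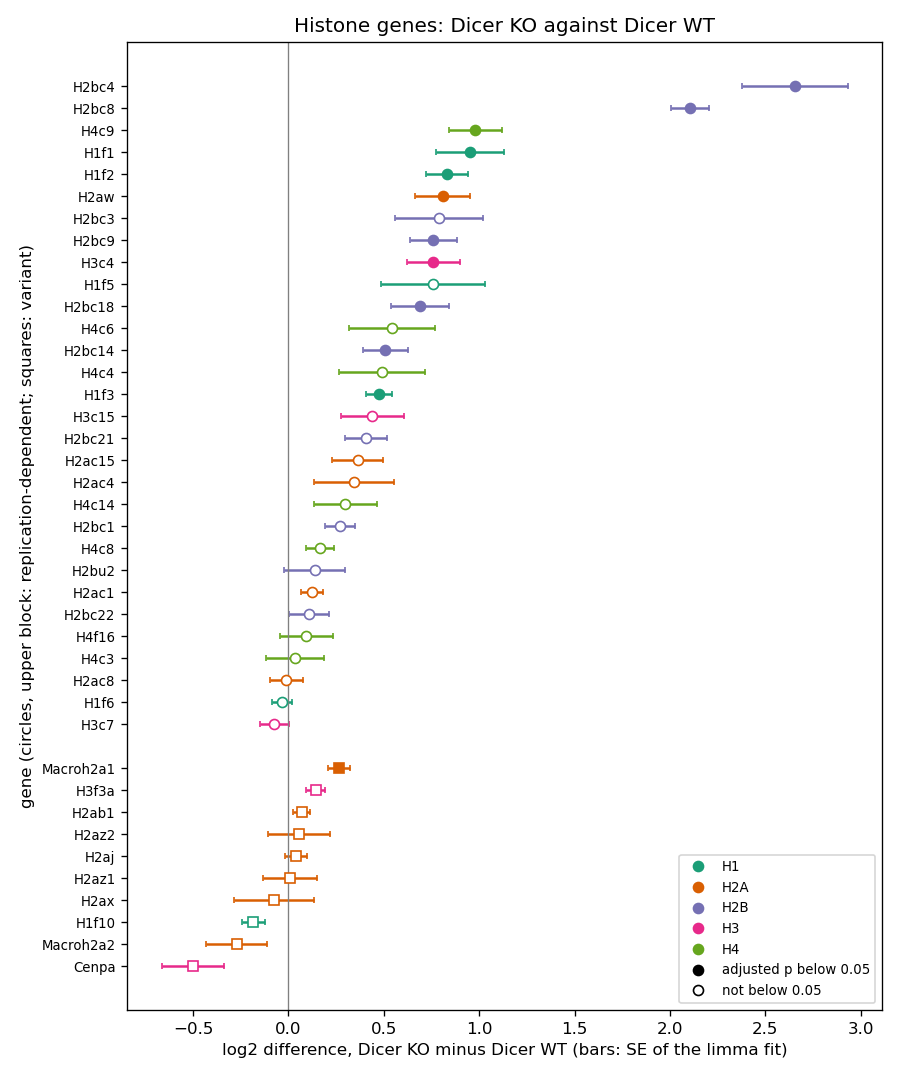
Each histone gene's log2 difference, KO minus WT (horizontal axis), with the SE of the limma fit and n = 3 arrays per genotype. Circles in the upper block are the 30 replication-dependent genes and squares the 10 variants, coloured by histone family, and filled symbols have an adjusted p below 0.05. H2bc4 and H2bc8 stand at 2.65 and 2.11, all other members lie below 1, and Cenpa is lowest at -0.50.

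The largest differences were in genes of the core histone H2B. Of 10 replication-dependent H2B genes, 5 were higher and 0 lower in Dicer KO, all 10 differences were above 0, and the family median was 0.60. These counts of called genes, and those of the other families below, stand beside 5.94% of all genes called higher and 2.79% called lower. H2bc4 read -1.48, -0.9999 and -1.09 in Dicer WT and 0.9999, 2.12 and 1.27 in Dicer KO. The genotypes lay far apart, with Dicer KO 2 the highest array. Its difference was 2.65 ± 0.28, or 6.29-fold (limma adjusted p = 0.00276). H2bc8 read -1.20, -1.09 and -0.89 in Dicer WT and 1.08, 1.16 and 0.89 in Dicer KO. Its arrays were tight within each genotype, and the difference was 2.11 ± 0.10, or 4.30-fold (limma adjusted p = 0.000273). Both genes encode ordinary core H2B and lie in Hist1, the largest histone cluster. Neither was in the higher level class. The adjusted p of either gene stayed at or below 0.0162 with any 1 array left out.

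H2bc9, also in Hist1, read -0.66, -0.20 and -0.54 in Dicer WT and 0.20, 0.25 and 0.43 in Dicer KO, a difference of 0.76 ± 0.12 (limma adjusted p = 0.0126). Leaving out Dicer KO 2 took it past the threshold (adjusted p = 0.0538). H2bc18, of the Hist2 cluster, read -0.28, -0.78 and -0.17 in Dicer WT and 0.37, 0.29 and 0.17 in Dicer KO. Dicer WT 2 was its lowest array by far, and the difference was 0.69 ± 0.15 (limma adjusted p = 0.036). H2bc14 read -0.37, -0.06 and -0.30 in Dicer WT and 0.06, 0.29 and 0.44 in Dicer KO, a difference of 0.51 ± 0.12 (limma adjusted p = 0.042). H2bc18 was no longer called if Dicer WT 1 or any Dicer KO array was left out (adjusted p 0.0624 to 0.126). For H2bc14 the same held of Dicer WT 1, Dicer WT 3, Dicer KO 2 and Dicer KO 3 (adjusted p 0.0925 to 0.144).

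The H2B genes that were not called ranged from 0.11 to 0.79. H2bc3 had the largest difference of any uncalled member, 0.79 ± 0.23 (limma adjusted p = 0.0877), with -0.49, -0.10 and -0.28 in Dicer WT and 0.10, 0.37 and 1.04 in Dicer KO. Its genotypes did not overlap, but the Dicer KO arrays were spread widely, with Dicer KO 3 at the top. H2bc22 gave the smallest H2B difference, 0.11 ± 0.11, and its genotypes overlapped. H2bc1, which encodes the testis-specific H2B, had a difference of 0.27 ± 0.08 (limma adjusted p = 0.0811). The pseudogene H2bu1-ps, counted in neither class, had a difference of 0.39 ± 0.11 (limma adjusted p = 0.0767).

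The upstream sequences of 3 called H2B genes, of the uncalled H2bc22 and of the called genes H1f2 and H4c9 are printed next, to show the elements these promoters hold. Promoter windows of RefSeq, build GRCm38.p6, run from 250 bases before a gene's start to 50 after it, and 35 of the 40 members had one. The 5 without a window were H2bc4, which had the largest difference of all members, H2bc21, H3c7, H4c14 and H2ax. The 179 bases before each start are printed, 5′ to 3′ on the gene's strand. Capitals mark 3 motifs searched on both strands, the octamer ATTTGCAT, the CCAAT box CCAAT and the TATA box TATAAA, none of which contains another. Only these exact letters were searched, at any place in a window. A marked TATAAA is thus a match of letters and need not be a working TATA box. In H4c9 it lies 137 bases before the start. The octamer is the element of H2B promoters that the factor Oct-1 binds. H2bc8 lies at chr13:23571221-23571399 (+), H2bc18 at chr3:96269521-96269699 (+), H2bc9 at chr13:23543445-23543623 (-) and H2bc22 at chr13:21787309-21787487 (+). H1f2 lies at chr13:23738628-23738806 (+) and H4c9 at chr13:22041363-22041541 (-).
H2bc8: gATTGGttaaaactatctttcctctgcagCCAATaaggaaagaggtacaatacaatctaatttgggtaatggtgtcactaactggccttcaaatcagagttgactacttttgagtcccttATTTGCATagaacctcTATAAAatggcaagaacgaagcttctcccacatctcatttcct
H2bc18: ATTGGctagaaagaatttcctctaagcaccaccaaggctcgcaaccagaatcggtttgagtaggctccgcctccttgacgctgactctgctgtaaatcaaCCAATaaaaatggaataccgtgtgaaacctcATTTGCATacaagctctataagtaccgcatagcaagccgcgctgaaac
H2bc9: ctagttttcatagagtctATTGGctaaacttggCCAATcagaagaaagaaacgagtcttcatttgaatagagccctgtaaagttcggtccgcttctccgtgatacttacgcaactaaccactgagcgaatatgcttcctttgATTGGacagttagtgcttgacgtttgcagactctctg
H2bc22: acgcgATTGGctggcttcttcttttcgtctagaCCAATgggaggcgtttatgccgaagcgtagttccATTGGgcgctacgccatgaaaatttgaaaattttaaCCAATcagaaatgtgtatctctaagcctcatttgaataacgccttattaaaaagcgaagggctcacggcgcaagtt
H1f2: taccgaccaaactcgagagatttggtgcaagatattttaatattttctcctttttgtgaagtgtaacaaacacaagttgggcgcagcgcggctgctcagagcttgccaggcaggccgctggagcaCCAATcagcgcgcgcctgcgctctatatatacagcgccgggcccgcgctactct
H4c9: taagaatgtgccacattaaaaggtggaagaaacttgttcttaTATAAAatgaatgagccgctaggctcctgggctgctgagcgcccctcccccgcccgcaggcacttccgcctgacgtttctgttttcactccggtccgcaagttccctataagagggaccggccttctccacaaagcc
The first octamer base lies 59 bases before the start in H2bc8 and 48 bases before it in H2bc18. H2bc9, which was called, and H2bc22, which was not, hold no exact octamer in their windows. Both of their printed stretches hold the near form atttgaat, with an a where the octamer has its c. Near forms were not counted.

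Over the replication-dependent members, 4 of 10 windows of called genes and 5 of 16 windows of uncalled genes held the octamer, beside 1.74% of all 32851 windows. The octamer stood in 5 of 8 H2B and 4 of 5 H2A windows and in none of the 5 H1, 2 H3 and 6 H4 windows. A CCAAT box was in 9 of the 10 called and 13 of the 16 uncalled windows (37.41% of all windows). The letters TATAAA were in 5 and 11 (13.62% of all windows), at any distance from the start. The 9 variant windows held 0 octamers and 0 TATA boxes, and 7 held a CCAAT box. Among the members, 2 pairs have windows that overlap head to head. In each pair the octamer is the same site read on opposite strands, so the counts above hold it under both genes. The site of H2bc8 and H2ac8 stands among the called windows for H2bc8 and among the uncalled for H2ac8. Other motifs in the shared bases were also counted under both genes. H2bc8 and H2ac8 start 180 bases apart on opposite strands and share 279 bases of window, and the bases printed for H2bc8 are those between the starts, with 1 octamer, 2 CCAAT boxes and 1 TATA box. H2ac8 encodes a core H2A and read 0.13, -0.01 and -0.15 in Dicer WT and 0.05, -0.13 and 0.01 in Dicer KO. Its genotypes overlapped and its difference was -0.01 ± 0.09 (limma adjusted p = 0.969), against 2.11 ± 0.10 for H2bc8. H2ac1 and H2bc1, the testis-specific pair, start 281 bases apart and had differences of 0.12 ± 0.06 and 0.27 ± 0.08.

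**Figure D2:**
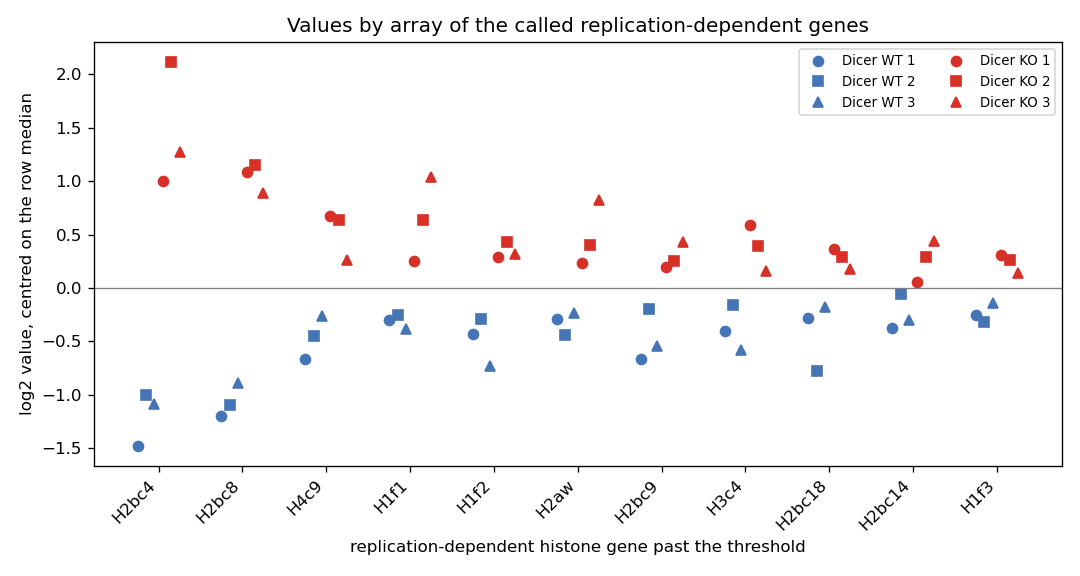
Row-centred log2 values (vertical axis) of the 11 called replication-dependent genes on the 3 Dicer WT arrays (blue) and 3 Dicer KO arrays (red), with the array number by symbol shape. All Dicer WT points lie below all Dicer KO points in each gene, and Dicer KO 3 is the top Dicer KO array in 4 of the 11.

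Of 5 linker histone genes of the Hist1 cluster, 3 were higher in Dicer KO and 0 lower. H1f1, H1f2, H1f3 and H1f5 encode somatic H1 subtypes that compact the fibre between nucleosomes. H1f2 read -0.43, -0.29 and -0.73 in Dicer WT and 0.29, 0.43 and 0.31 in Dicer KO, a difference of 0.83 ± 0.11, or 1.78-fold (limma adjusted p = 0.00572). H1f3 read -0.25, -0.32 and -0.14 in Dicer WT and 0.31, 0.26 and 0.14 in Dicer KO, a difference of 0.47 ± 0.07 (limma adjusted p = 0.00823). Both had Dicer KO arrays close together. H1f1 read -0.30, -0.25 and -0.38 in Dicer WT and 0.25, 0.64 and 1.04 in Dicer KO, a difference of 0.95 ± 0.18, or 1.94-fold (limma adjusted p = 0.0199). It did not pass when Dicer WT 1, Dicer WT 2 or Dicer KO 2 was left out (adjusted p 0.0624 to 0.081). H1f5 ran from -0.56 to -0.0026 in Dicer WT and from 0.0026 to 1.10 in Dicer KO. The genotypes just failed to overlap, Dicer KO 3 was far above the other two, and the difference of 0.76 ± 0.27 did not pass (limma adjusted p = 0.159). H1f6, the testis-specific linker histone, had a difference of -0.04 ± 0.05 (limma adjusted p = 0.792).

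Among 5 H2A genes, 1 was higher and 0 lower. H2aw, the H2A gene of the small Hist3 cluster, read -0.29, -0.44 and -0.24 in Dicer WT and 0.24, 0.40 and 0.82 in Dicer KO, a difference of 0.81 ± 0.14, or 1.75-fold (limma adjusted p = 0.017). The arrays of the genotypes were apart, but H2aw did not pass when Dicer WT 1, Dicer WT 2 or Dicer KO 2 was left out (adjusted p 0.0608 to 0.0658). H2bu2, the H2B gene of the same cluster, had overlapping genotypes and a difference of 0.14 ± 0.16. The other H2A genes ranged from -0.01 to 0.36.

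Of 3 H3 genes with a row of their own, H3c4 was higher. It read -0.40, -0.16 and -0.58 in Dicer WT and 0.59, 0.39 and 0.16 in Dicer KO, a difference of 0.76 ± 0.14 (limma adjusted p = 0.0175), and did not pass when Dicer WT 1 (adjusted p = 0.071) or Dicer KO 2 (0.076) was left out. H3c7 had the lowest difference of the replication-dependent genes, -0.07 ± 0.08 (limma adjusted p = 0.677), with overlapping genotypes. Of 7 H4 genes, H4c9 was higher. It read -0.66, -0.45 and -0.26 in Dicer WT and 0.67, 0.64 and 0.26 in Dicer KO, a difference of 0.98 ± 0.14, or 1.97-fold (limma adjusted p = 0.00729). H4c9 was the only H4 gene whose genotypes did not overlap. H4c6 ran from -0.51 to 0.0039 in Dicer WT and from -0.0039 to 0.80 in Dicer KO, a difference of 0.54 ± 0.23 (limma adjusted p = 0.223). All 7 H4 differences were above 0, from 0.03 to 0.98.

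Among the other uncalled genes, H4c4 read -0.58, -0.41 and 0.12 in Dicer WT and -0.12, 0.13 and 0.59 in Dicer KO, a difference of 0.49 ± 0.23 (limma adjusted p = 0.275). The genotypes overlapped, and Dicer WT 3 stood above the other Dicer WT arrays. H2bc21, of the Hist2 cluster, read -0.50, -0.09 and -0.13 in Dicer WT and 0.09, 0.22 and 0.20 in Dicer KO, a difference of 0.41 ± 0.11 (limma adjusted p = 0.0746). Its genotypes did not overlap, with Dicer WT 1 far below the rest. H2ac15 read -0.21, -0.11 and -0.01 in Dicer WT and 0.01, 0.20 and 0.55 in Dicer KO, a difference of 0.36 ± 0.14 (limma adjusted p = 0.169). These genes were picked after their values were seen. Over all 19 uncalled genes the median difference was 0.27, or 0.13 with Dicer KO 3 left out, and over the 11 called genes it was 0.81, or 0.75 with Dicer KO 3 left out. The calls define these subsets, so their medians are a description.

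By gene cluster, 9 of 23 Hist1 genes, 1 of 4 Hist2 genes, 1 of 2 Hist3 genes and 0 of 1 Hist4 gene were higher in Dicer KO, and 0 were lower. Over all genes 5.94% were called higher and 2.79% lower, and the clusters other than Hist1 hold too few genes for a share of their own. The medians of the clusters were 0.49, 0.42, 0.47 and 0.09. Within Hist1 the differences ran from -0.07 to 2.65, so the members of the cluster did not share a size of difference.

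Many histone genes are nearly alike in coding sequence, and 32 rows of the array name several genes among which at least 1 is a histone. These rows are outside the member rule and were tested in a second fit of 21540 genes and rows. They name 57 histone symbols, of which 38 have no row of their own and 19 are also members through one. The shared rows are thus not independent of the member results. All 32 differences were above 0, and 19 rows were called higher, beside 5.98% of all genes and rows in that fit. Rows of one family that name over 2 genes share genes, so they are not independent. Of these rows, 2 of 2 H2A, 6 of 7 H2B, 10 of 10 H3 and 5 of 5 H4 rows were in the higher level class. Of the 30 replication-dependent members 5 were in it, beside 3244 of all 19935 genes. Of the 11 called members 2 were in it, H1f2 and H2bc14. The 7 H2B rows, which name 14 or 15 symbols each, were all called, with differences from 1.22 to 1.37 (limma adjusted p 0.00218 to 0.00526). Their mean was -0.75, -0.49 and -0.54 in Dicer WT and 0.49, 0.57 and 1.01 in Dicer KO. The 2 H2A rows differed by 0.61 and 0.71 and the 5 H4 rows that name 11 symbols by 0.66 to 0.73, and all of these were called (limma adjusted p 0.00712 to 0.0351). A further H4 row, which names 2 genes, was not called. It read -0.41, -0.06 and 0.45 in Dicer WT and 0.06, -0.06 and 0.47 in Dicer KO, with overlapping genotypes and a difference of 0.16 ± 0.23 (limma adjusted p = 0.778).

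The 10 shared H3 rows, each naming 12 genes, had differences of 0.81 to 0.97, and 0 of them were called by limma (adjusted p 0.0929 to 0.156), though all 10 had an unadjusted p below 0.05. Their mean was -0.36, -0.09 and -0.33 in Dicer WT and 0.09, 0.52 and 1.33 in Dicer KO. The genotypes did not overlap, and Dicer KO 1 lay close to Dicer WT 2 while Dicer KO 3 lay far above. Without Dicer KO 3 the mean H3 difference was 0.57, and that of the shared H2B rows was 1.12 in place of 1.29. A row naming an H2B gene and a linker histone gene differed by 0.78 ± 0.08 (limma adjusted p = 0.0023), with 0.34, 0.36 and 0.32 in Dicer KO.

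**Figure D3:**
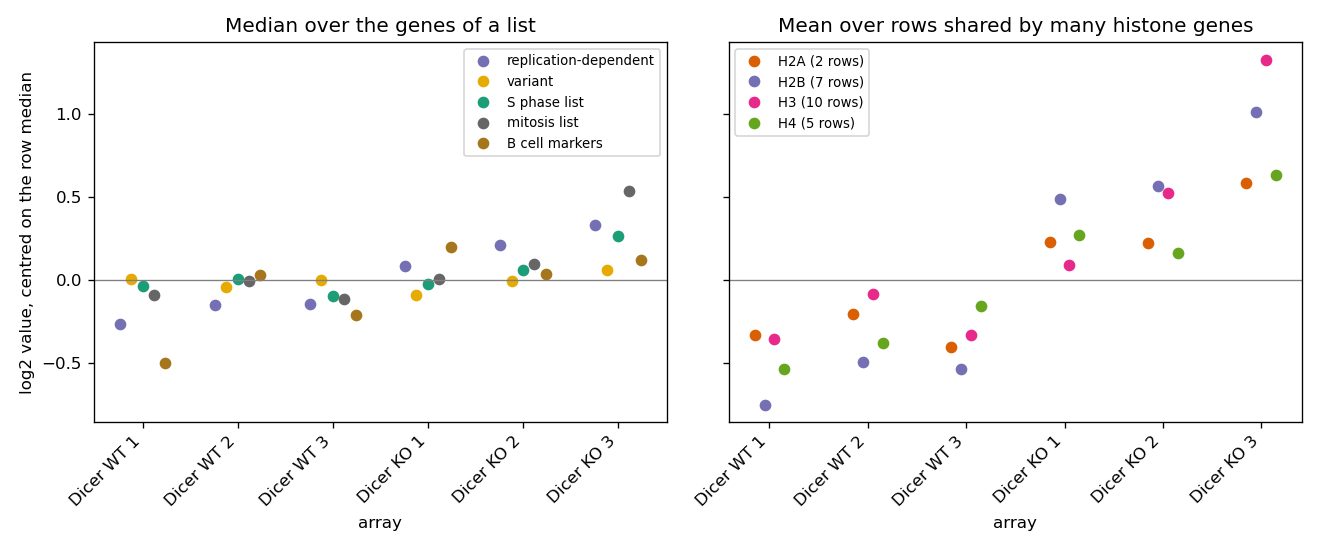
Left, the median row-centred log2 value over the genes of each list on each array. Right, the mean over the rows shared by many genes of the families H2A, H2B, H3 and H4, and points are offset sideways for legibility. The replication-dependent median is below 0 on each Dicer WT array and above 0 on each Dicer KO array, and the S phase, mitosis and shared H3 values are highest on Dicer KO 3.

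The differences of the variant histones ran from -0.50 to 0.26. Macroh2a1, a histone with a large macro domain found in repressed chromatin, was the variant called higher. It read -0.07, -0.15 and -0.20 in Dicer WT and 0.07, 0.13 and 0.17 in Dicer KO, a difference of 0.26 ± 0.06, or 1.20-fold (limma adjusted p = 0.0336). Its arrays did not overlap, yet with any 1 array left out it was not called (adjusted p 0.0505 to 0.122). Its paralogue Macroh2a2 had a difference of -0.27 ± 0.16 (limma adjusted p = 0.41), with Dicer KO 2 at -0.65 and the other arrays from -0.13 to 0.06.

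Cenpa, the H3 variant that marks centromeres, had the lowest difference of all members, -0.50 ± 0.16 (limma adjusted p = 0.12). It read 0.51, 0.44 and -0.04 in Dicer WT and -0.37, -0.26 and 0.04 in Dicer KO, so the genotypes overlapped through Dicer WT 3 and Dicer KO 3. Without Dicer WT 3 it was called lower (adjusted p = 0.0233). The linker histone H1f10, also called H1x, read 0.07, 0.04 and 0.03 in Dicer WT and -0.03, -0.19 and -0.20 in Dicer KO, a difference of -0.18 ± 0.06 that did not pass (limma adjusted p = 0.123).

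The H2A.Z genes H2az1 and H2az2, whose product sits beside transcription start sites, had differences of 0.01 ± 0.14 and 0.05 ± 0.16 (limma adjusted p = 0.986 and 0.91). The sign of the difference turned in 5 alternative settings for H2az1, quantile normalization among them, and in 3 for H2az2. H2ax, whose product is phosphorylated at DNA breaks, had a difference of -0.08 ± 0.21 (limma adjusted p = 0.9). The sign of the H2ax difference turned in 2 settings. For each of these genes the Dicer KO arrays were spread, from -0.26 to 0.30 for H2az1, from -0.39 to 0.18 for H2az2 and from -0.51 to 0.38 for H2ax. Of the Dicer KO arrays, Dicer KO 1 was lowest and Dicer KO 3 highest for each of these genes. H2aj (0.04 ± 0.06) and the short H2A variant H2ab1 (0.07 ± 0.05) did not pass either. H2az1 and H2ab1 lay on 2 rows each, and the rows of a gene gave the same call.

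H3f3a, a gene of the replacement histone H3.3, had a difference of 0.14 ± 0.05 on its own row (limma adjusted p = 0.152). The 4 rows that name H3f3a together with a further gene model differed by 0.45 to 0.48 and were all called in the fit that keeps such rows (limma adjusted p 0.00704 to 0.0138). The row of H3f3a alone and these rows thus gave different calls, and H3f3a is reported as uncertain. H3f3b, the second H3.3 gene, had no row of its own. Its 2 shared rows differed by 0.64 and 0.75 and were not called (limma adjusted p 0.0689 and 0.0947). They averaged -0.06, -0.40 and -0.88 in Dicer WT and 0.38, 0.29 and 0.06 in Dicer KO. H1f0 was not analysed here.

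Dicer KO 3 had the highest value of the Dicer KO arrays in 18 of the 30 replication-dependent genes and in 8 of the 10 variants, beside 7920 of all 19935 genes. S phase genes did so in 27 of 31 cases and mitosis genes in 16 of 16. Without Dicer KO 3 the difference fell from 0.34 to 0.08 for H2ac4, from 0.54 to 0.29 for H4c6, from 0.44 to 0.23 for H3c15 and from 0.79 to 0.52 for H2bc3. It was 2.75 in place of 2.65 for H2bc4, 2.18 in place of 2.11 for H2bc8, 1.11 in place of 0.98 for H4c9 and 0.87 in place of 0.76 for H3c4. The genes named here were chosen after their values were seen. The median difference of the variants was -0.095 when Dicer KO 3 was left out. The part of cell cycle differences between samples in these values was not tested.

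**Figure D4:**
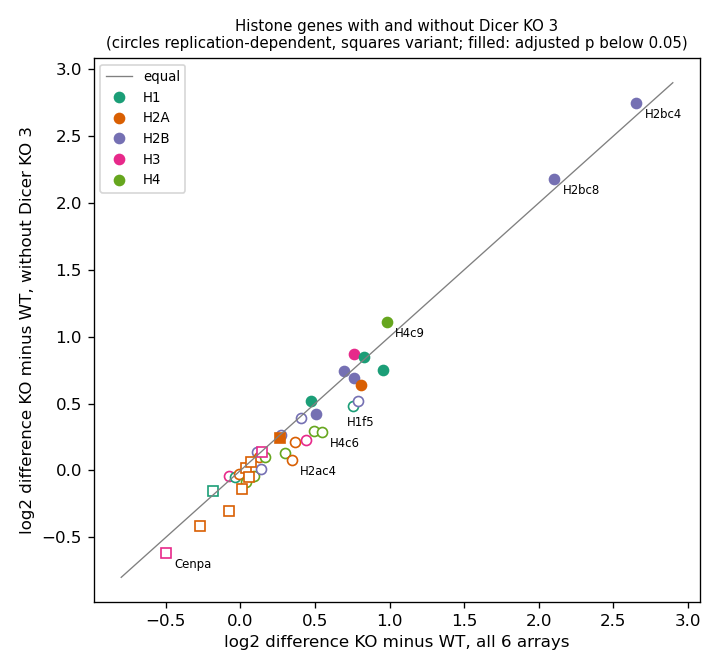
Log2 difference, KO minus WT, over all 6 arrays (horizontal axis) and without Dicer KO 3 (vertical axis) for the 40 histone genes, coloured by family, with circles for replication-dependent genes, squares for variants and filled symbols for an adjusted p below 0.05. H2bc4, H2bc8 and H4c9 lie above the line of equal values, while H1f5, H4c6 and H2ac4 lie below it.

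The S phase list, genes of DNA replication such as the MCM helicase and nucleotide synthesis enzymes, had 2 of 31 members higher and 0 lower in Dicer KO, with a median of 0.18. These counts, and those of the lists that follow, stand beside 5.94% of all genes called higher and 2.79% called lower. Its array medians were -0.04, 0.0014 and -0.10 in Dicer WT and -0.02, 0.06 and 0.26 in Dicer KO. The called members were the polymerase clamp Pcna (0.37 ± 0.08, limma adjusted p = 0.0334) and the DNA ligase Lig1 (0.43 ± 0.10, limma adjusted p = 0.0443). With 1 array left out, both were called only where that array was Dicer KO 1, and adjusted p otherwise reached 0.105 for Pcna and 0.153 for Lig1. Of 16 mitosis genes, the checkpoint kinase Ttk alone was called (0.22 ± 0.05, limma adjusted p = 0.0298), and the median was 0.31, or 0.16 without Dicer KO 3. Ttk was not called with any 1 array left out (adjusted p 0.0539 to 0.104). Over the same arrays the replication-dependent medians were -0.27, -0.15 and -0.15 in Dicer WT and 0.08, 0.21 and 0.33 in Dicer KO.

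Genes that process or destroy histone messages had 3 of 15 members higher and 0 lower, with a median of 0.14 (5.94% of all genes were higher). Sympk encodes symplekin, the scaffold of the complex that cleaves histone messages after the stem-loop and of the one that cleaves other messages before polyadenylation. It read -0.60, -0.69 and -0.47 in Dicer WT and 0.71, 0.54 and 0.49 in Dicer KO. The genotypes were far apart, and the difference was 1.17 ± 0.08, or 2.25-fold (limma adjusted p = 0.000852). Cpsf2, a further subunit of both complexes, differed by 0.42 ± 0.06 (limma adjusted p = 0.00755) and the cap-binding protein gene Ncbp1 by 0.36 ± 0.07 (limma adjusted p = 0.0235). With 1 array left out, Ncbp1 passed where that array was Dicer WT 3 or Dicer KO 1, and its adjusted p otherwise reached 0.102. Slbp, whose product binds the stem-loop itself, and Npat, the coactivator of replication-dependent histone genes, were looked up after the values were seen and did not pass. Slbp differed by 0.23 ± 0.09 (limma adjusted p = 0.204) and Npat by 0.29 ± 0.09 (limma adjusted p = 0.106).

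Histone chaperones and exchange factors had 3 of 25 measured members higher and 0 lower, with a median of 0.05 (5.94% of all genes were higher). Nasp, a chaperone of H1 and of H3 with H4, read -0.18, -0.24 and -0.57 in Dicer WT and 0.18, 0.23 and 0.22 in Dicer KO, a difference of 0.54 ± 0.10 (limma adjusted p = 0.0202). It was not called without Dicer KO 2 or Dicer KO 3 (adjusted p up to 0.0861). Hat1, the enzyme that acetylates newly made H4, differed by 0.52 ± 0.06 (limma adjusted p = 0.00383). Ep400, the motor of a complex that exchanges histone variants, differed by 0.22 ± 0.04 (limma adjusted p = 0.0256), but was not called with any 1 array left out (adjusted p 0.0536 to 0.0924).

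At an unadjusted limma p below 0.05, the processing and decay list had 8 genes higher and 0 lower, the chaperone list 6 and 1, the S phase list 9 and 0, and the mitosis list 7 and 0. The same count over all genes was 2412 higher and 1873 lower.

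Markers of other cells moved with the arrays in part. The median of 10 B cell markers was -0.50, 0.03 and -0.21 in Dicer WT and 0.20, 0.04 and 0.12 in Dicer KO, and all 10 differences were above 0. Of these Bank1 was called (0.71 ± 0.11, limma adjusted p = 0.00975), though not when Dicer KO 2 was left out (adjusted p = 0.0515). The median difference of the B cell markers was 0.31, and 6 of the 10 were higher at an unadjusted limma p below 0.05. With Dicer WT 2 left out, 4 of them were called and the median difference was 0.44. Dicer WT 1 and Dicer WT 3 had the lowest B cell marker medians, so leaving both out lowers the B cell difference by construction. The B cell median difference was then 0.08 and that of the replication-dependent histones 0.43. Each rests on 1 Dicer WT array, and no conclusion is drawn from setting them side by side. Of 10 myeloid markers Lyz2 was higher (0.69 ± 0.12, limma adjusted p = 0.0165), though not when Dicer WT 1 or Dicer KO 2 was left out (adjusted p up to 0.0699), and the median was 0.00043. Of 5 thymocyte markers, Dntt, the terminal transferase of antigen receptor joining, was higher by 2.54 ± 0.20 (limma adjusted p = 0.00107), and the median was 0.01. Of the 7 CD4 T cell markers, Cd4 (0.67 ± 0.07) and Cd2 (0.57 ± 0.06) were higher and Cd5 lower (-0.44 ± 0.06; limma adjusted p 0.00328, 0.00329 and 0.00704). Of 2 CD8 T cell genes, 5 dendritic, 5 NK and 1 erythroid marker, 0 were called by limma, and 1, Cd8b1, had an unadjusted p below 0.05 (-0.26 ± 0.07, limma adjusted p = 0.0567). The lowest adjusted p of the dendritic list was 0.316 for Siglech, of the NK list 0.473 for Eomes, and of the erythroid list 0.907 for Alas2. The part of other cell types in the histone differences was not tested.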

How the data were processed

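The authors deposited log values, taken here as log2, for 28815 rows on 6 arrays, with MAS5 named per the submitters' processing notes and no role given. Neither the log base nor the scaling between arrays is stated in the sources used here, and base 2 is assumed. Every row was centred on its median before deposit (largest absolute row median 5e-07), array medians lay between -0.0088 and 0.0063, and values ran from -2.59 to 3.00. The number of arrays limits the precision. Row names came from the platform annotation held by GEO. Of 21780 rows with a single symbol, 21689 were found by gene ID in RefSeq's table of GRCm38.p6. The 1605 rows with several symbols and 5430 unnamed rows were left out of the main test. The mean of a gene's rows gave 19935 genes.

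The genotypes were compared by lmFit and eBayes of limma 3.58.1 (R 4.3.3; 3 against 3 arrays, no block) with Benjamini-Hochberg adjustment over all genes at 0.05. The main test used no filter on low values, since the centred values hold no level. An alternative fit kept only the 3244 genes of the higher level class.

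Of the replication-dependent members, 23 matched by platform symbol and 7 by an older symbol of the same gene ID. H2ab1, which a pattern also catches, was counted as a variant. Members and lists were chosen with earlier results of these data known. Named were all called members, all variants and H1 genes, the 3 highest and 3 lowest uncalled replication-dependent genes, and per list up to 4 called genes by lowest p, or the lowest 2 where none passed. Other members named, Slbp, Npat and the shared rows of H3f3b fall outside that rule and were chosen after their values were seen.

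Alternatives were a replicate block, leaving out arrays, other scaling, single rows, several-symbol rows, level class, robust fits, array weights and stricter thresholds.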

Additional observations from a re-analysis of the deposited data

How the results depend on the processing

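Over all alternatives run, each called replication-dependent gene kept its direction, and 11 were called after quantile normalization or centring arrays on their medians, with 0 called members changing sign. The replication-dependent genes called ranged from 5 to 12 and their median from 0.29 (without Dicer KO 3) to 0.55 when 1 array was left out. They numbered 2 without Dicer WT 1 and Dicer WT 3, where the lone Dicer WT array is assumed to vary like the Dicer KO arrays, 2 of the 5 members in the higher level class, 5 at a threshold of 0.01 and 7 with the platform symbol alone, which drops 7 genes (chosen after seeing the data). With the replicate block 18 were called, all higher. The block also raised the calls over all genes, in either direction, from 1741 to 2063. The labels do not say that a number marks a shared litter, batch or day, so the numbers were not taken as pairs. Same-numbered arrays had correlations of their deviations from the genotype means of 0.27, -0.076 and 0.30. With 3 arrays per genotype these values do not settle whether the arrays were paired. The arrays numbered 1 and 3 correlated best with their own number and those numbered 2 did not.

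Variants called numbered 0 to 1 with 1 array left out, and the 1 was Cenpa, called lower without Dicer WT 3. They numbered 0 with the replicate block, at 0.01 or with a minimum difference of 0.5. With array weights 1 variant was higher and 1 lower, and 2537 of all genes were called. The variant median ranged from -0.095 (without Dicer KO 3) to 0.11 with 1 array left out, and was 0.088 without Dicer WT 1 and Dicer WT 3 and 0.14 in the higher level class. All genes called ranged from 729 to 1597 with 1 array left out, and were 213 without Dicer WT 1 and Dicer WT 3, 1055 in the higher level class, 619 at 0.01 and 657 with the minimum difference. Without Dicer WT 1 and Dicer WT 3 the medians of the chaperone and thymocyte lists were -0.011 and -0.038. The causes were not tested. With 3 arrays per genotype, uncalled differences are not shown to be absent.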
